A study of Mus musculus with 4 samples.

Results

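Deletion of Mel18 alone was compared with the wild type in colon epithelial preparations from mice early in colitis-associated tumour formation. The comparison holds 2 of the 4 arrays of the series, the array labelled Mel18ΔIEC (written Mel18_KO) minus the array labelled WT, and covers 12526 of 19938 named genes, those whose log2 intensity reached 6 on the brightest of the 4 arrays. Each gene stands by its brightest probe set that lists 1 symbol, and 547 of the genes reached that floor on just one of Mel18_KO and WT, so that these were bound to differ, while 640 reached it only on the other two arrays, labelled Bmi1ΔIEC (Bmi1_KO) and Bmi1ΔIEC Mel18ΔIEC (DKO). All 4 genotypes were on C57BL/6, with sex-matched mice of 6 to 8 weeks at the start. Every group, WT included, received azoxymethane at 10 mg/kg, then from 5 days later dextran sulfate sodium at 3.5% in the drinking water for 5 days, and was sampled on day 12. Epithelium was shaken off the opened colon in 5 mM EDTA without sorting, so other cells of the mucosa could enter the preparation. The labels name intestinal epithelial cells as the site of the deletion, and the sources used here do not say what drives the recombinase. Each genotype has 1 array, the sources used here do not give the number of mice behind each, and no test between genotypes was possible: a difference below compares 2 preparations.

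Mel18, encoded by Pcgf2, and Bmi1, also called Pcgf4, are related ring-finger subunits of canonical Polycomb repressive complex 1, which ubiquitinates histone H2A and compacts chromatin at genes that are to stay silent. The 2 proteins occupy the same position in alternative versions of the complex, and Cdkn2a is the best known gene that they hold down. Azoxymethane damages DNA in colon crypts, and dextran sulfate sodium breaks the epithelial barrier, which draws neutrophils and monocytes into the mucosa and starts a phase of repair.

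The deleted genes did not check the labels. Pcgf2, read by probe set 10390458, measured 6.96 on the log2 scale on WT, 6.84 on Mel18_KO, 6.72 on Bmi1_KO and 6.81 on DKO. Bmi1 (probe set 10469514) stood at 7.25, 7.0, 7.43 and 7.64 on the same arrays. The Mel18_KO level of Pcgf2 lay 0.13 below WT, inside the general scatter of this pair of arrays, whose differences had a scaled median absolute deviation of 0.22 over all genes. The sources used here do not say which exons the deletions remove, so a probe set spread over the transcript need not fall, and the directions below rest on the labels alone. Epithelial markers were bright on both arrays: Epcam stood at 12.14 on WT and 11.99 on Mel18_KO, Cdh1 at 12.31 and 12.35, and Krt8 at 13.06 and 13.21. The median difference of the 43 pan-epithelial genes measured was 0.12, with summed intensities of 106892 on WT and 116572 on Mel18_KO.

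The 2 arrays were close over most genes, with a Pearson correlation of 0.980 across the 12526 genes and a median difference of 0.00. Counted at 2-fold, Mel18_KO exceeded WT for 18 genes (0.144%) and fell short of it for 102 (0.814%). At 1.5-fold the counts were 149 higher (1.19%) and 294 lower (2.35%), and at 3-fold 5 higher (0.0399%) and 37 lower (0.295%). The pair differed at 2-fold in about as many genes as WT and Bmi1_KO, which were apart in 114. On its low side the difference often ended under the floor: Mel18_KO was there for 35 of the 102 lower genes and WT for 9 of the 18 higher ones. By the mean of both arrays, 13 of the lower and 3 of the higher genes were under 6. With a floor of 8, 90 lower and 8 higher genes remained, so dim genes weighed more in the higher count.

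**Figure D1:**
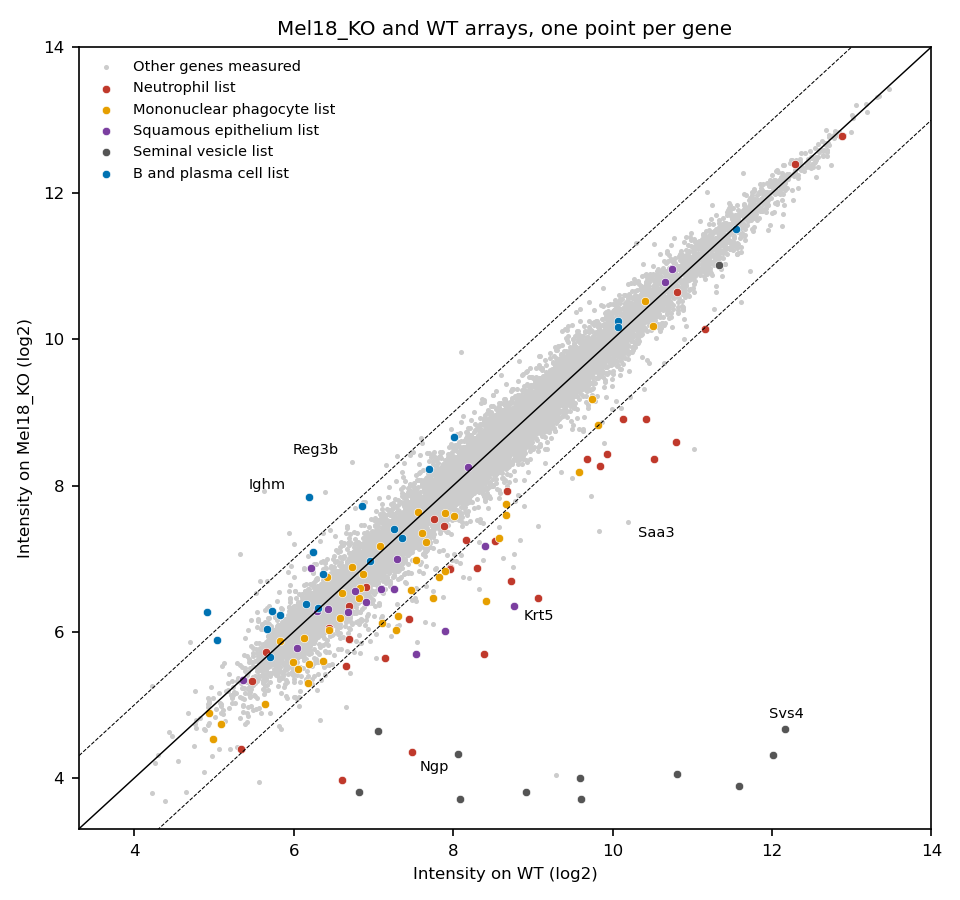
Log2 intensity of each of the 12526 genes on WT (horizontal axis) and Mel18_KO (vertical axis), 1 point per gene, with colours for 5 gene lists, a solid line at equality and dashed lines at 2-fold. Neutrophil genes such as Ngp and the seminal vesicle genes lie below the lower dashed line, while Reg3b and Ighm lie above the upper one.

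The lower genes fell into separate groups according to which array stood apart. For 70 of the 102 genes (0.559% of the genes measured) the Mel18_KO level was at least 2-fold below each of the other 3 arrays. For 16 others it was WT that stood at least 2-fold above each other array, and the remaining 16 met neither condition. In the opposite direction 0 genes (0%) were at least 2-fold above each other array on Mel18_KO. Mel18_KO was the lowest of the 4 arrays for 18.8% of all genes and the highest for 26.6%.

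**Figure D2:**
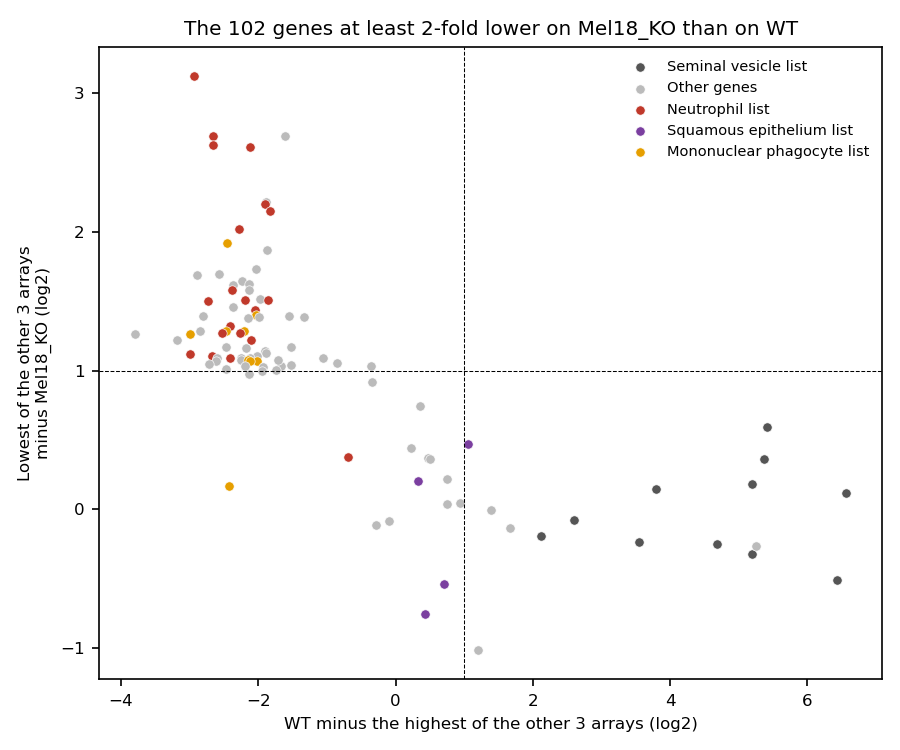
Each of the 102 genes at least 2-fold lower on Mel18_KO than on WT, placed by how far WT lies above the highest other array (horizontal axis, log2) and how far Mel18_KO lies below the lowest other array (vertical axis, log2), with dashed lines at 2-fold. The 70 genes above the horizontal line include 19 of the neutrophil list, and the 16 right of the vertical line include 11 of the seminal vesicle list.

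Neutrophil genes were the list with the lowest median apart from seminal vesicle secretions. This list, like the others, was chosen with earlier results of these data known, which limits what its counts show. Of the 46 genes on the list 37 were named on the array and 34 measured. Of these, 24 were at least 1.5-fold lower on Mel18_KO than on WT and 0 higher, against 2.35% and 1.19% of all genes. Their median difference was -1.12 against 0.00 over all genes, and 20 of the 34 were at least 2-fold lower. Without the floor the median was -1.09. Mel18_KO was the lowest of the 4 arrays for 30 of the 34, against 18.8% of all genes. From a preparation alone, fewer cells of a type and less RNA per cell cannot be told apart.

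Some granule proteins, which neutrophils make while they mature in the bone marrow, and other secreted products were among the genes with the widest gaps. Ngp, encoding neutrophilic granule protein, had a log2 intensity of 7.48 on WT, 4.35 on Mel18_KO, 10.09 on Bmi1_KO and 10.41 on DKO, 8.73-fold lower on Mel18_KO than on WT. Mmp8, the neutrophil collagenase, had 8.38, 5.69, 9.70 and 11.04, a 6.45-fold lower level. Chil3, a chitinase-like lectin of myeloid cells, had 6.60, 3.97, 9.07 and 9.26, 6.19-fold lower. All 3 kept the same order, with Mel18_KO lowest, then WT, Bmi1_KO and DKO, and their Mel18_KO levels were under the floor, so these folds are set against a signal near background. Lcn2, which binds bacterial siderophores and is made by both neutrophils and inflamed epithelium, stood well above the floor on every array, at 10.80, 8.59, 11.79 and 12.70 and thus 4.60-fold lower on Mel18_KO than on WT. Retnlg, a resistin-like secreted protein, behaved alike at 10.51, 8.36, 11.76 and 12.34, 4.45-fold lower.

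The promoters of Ngp, Mmp8 and Chil3 are shown because these are the lowest genes of the neutrophil list, and that of Reg3b, a gut defence gene, because it is second among the higher named genes. Each run is the 250 bases before the transcription start in RefSeq (GRCm38.p6), 5′ to 3′ on the strand of the gene, with matches in capitals. The letters searched on both strands were TTGCNNAA for C/EBP, the factor family of granulocyte maturation, GAGGAA for PU.1, the myeloid factor encoded by Spi1, and TTCNNNGAA for STAT factors. Ngp lies at chr9:110419558-110419807 on the plus strand, Mmp8 at chr9:7558179-7558428 on the plus strand, Chil3 at chr3:106167565-106167814 on the minus strand and Reg3b at chr6:78370635-78370884 on the plus strand.
Ngp: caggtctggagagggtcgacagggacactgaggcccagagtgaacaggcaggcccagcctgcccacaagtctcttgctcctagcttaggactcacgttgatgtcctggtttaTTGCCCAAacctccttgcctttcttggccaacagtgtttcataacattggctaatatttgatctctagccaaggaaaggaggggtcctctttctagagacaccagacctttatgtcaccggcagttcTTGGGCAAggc
Mmp8: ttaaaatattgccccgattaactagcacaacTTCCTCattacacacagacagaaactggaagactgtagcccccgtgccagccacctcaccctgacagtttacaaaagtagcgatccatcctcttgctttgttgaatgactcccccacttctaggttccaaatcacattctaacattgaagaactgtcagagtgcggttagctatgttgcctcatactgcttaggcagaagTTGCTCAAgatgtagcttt
Chil3: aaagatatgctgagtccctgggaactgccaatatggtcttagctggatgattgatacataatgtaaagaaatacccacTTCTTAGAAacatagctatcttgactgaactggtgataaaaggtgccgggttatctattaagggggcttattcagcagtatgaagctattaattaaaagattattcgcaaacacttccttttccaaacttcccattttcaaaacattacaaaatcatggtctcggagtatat
Reg3b: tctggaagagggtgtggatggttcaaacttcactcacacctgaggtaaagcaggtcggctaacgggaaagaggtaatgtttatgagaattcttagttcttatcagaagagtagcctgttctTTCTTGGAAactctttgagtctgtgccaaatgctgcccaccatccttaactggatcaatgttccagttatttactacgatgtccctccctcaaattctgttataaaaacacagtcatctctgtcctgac

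Ngp held 2 C/EBP matches, at 138 to 131 and at 11 to 4 bases before the start. Mmp8 held a C/EBP match at 19 to 12 bases and a PU.1 match, in reverse orientation, at 219 to 214 bases before the start. Chil3 held a STAT match at 172 to 164 bases and Reg3b one at 129 to 121 bases before the start. No match overlapped another in these windows. Of the 70 genes set apart on Mel18_KO, 56 had 60 windows in the table. C/EBP letters occurred in 25% of them, against 7.68% of the windows of all genes measured and 9.56% of all 32851 windows. PU.1 letters occurred in 43.3%, against 22.7% and 23.3%, and STAT letters in 16.7%, against 5.79% and 7.02%. The letters TATAAA, searched on the strand of the gene as a comparison, were also more frequent in these windows, at 25% against 4.47% and 7.59%. Such matches describe letters and not binding.

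Neutrophil products that act as alarm signals were lower too. S100a9 and S100a8 form calprotectin, a metal-binding protein abundant in neutrophil cytoplasm. S100a9 had 9.93 on WT, 8.43 on Mel18_KO, 11.09 on Bmi1_KO and 12.12 on DKO, and S100a8 had 10.13, 8.91, 11.45 and 12.23. Their differences from WT were -1.51 and -1.22. Ifitm6, a membrane protein of the interferon-induced family, had 9.06, 6.46, 10.34 and 11.18 and was 6.10-fold lower. Clec4e, a C-type lectin receptor for damaged cells and mycobacterial lipid, had 8.72, 6.70, 9.36 and 11.01 and was 4.06-fold lower, and the related receptor Clec4d stood at 7.15 and 5.65 on WT and Mel18_KO. Receptors followed with smaller differences: Trem1, which amplifies inflammatory signals, differed by -1.44, the interleukin-1 decoy receptor Il1r2 by -1.11 and the chemokine receptor Cxcr2 by -1.09. The 10 neutrophil genes less than 1.5-fold apart included Csf3r, the receptor for granulocyte colony-stimulating factor, which stood at 6.90 on WT and 6.62 on Mel18_KO. Pglyrp1 and Camp, also granule proteins, were the members on the higher side, by 0.10 and 0.07. Ly6g, the usual surface marker of mouse neutrophils and here also on the mature colonocyte list, was bright on all 4 arrays, at 12.88 on WT, 12.78 on Mel18_KO, 12.70 on Bmi1_KO and 12.79 on DKO, and did not separate them.

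**Figure D3:**
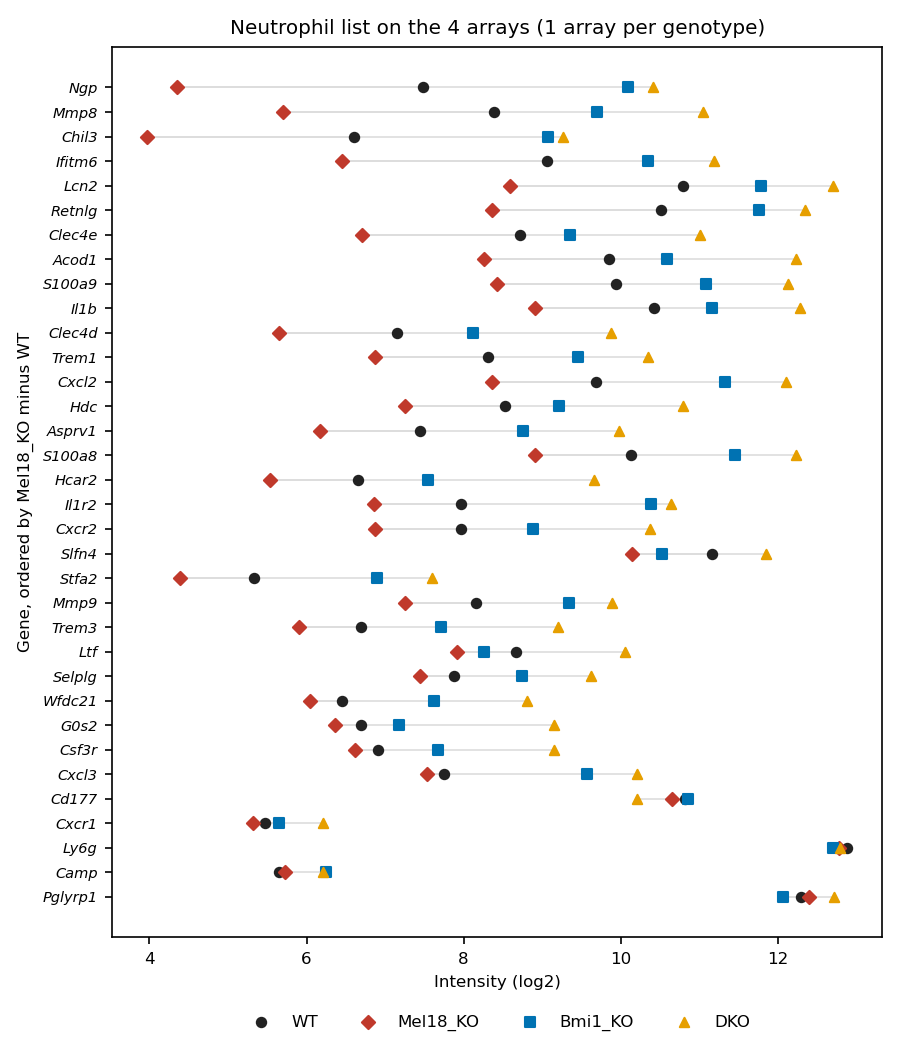
Log2 intensity of the 34 measured genes of the neutrophil list (rows, ordered by Mel18_KO minus WT) on the 4 arrays, 1 array per genotype, with black circles for WT, red diamonds for Mel18_KO, blue squares for Bmi1_KO and orange triangles for DKO. The red diamonds lie furthest left for 30 of the 34 genes, and Ngp shows the widest gap between Mel18_KO and WT.

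Genes of monocytes and macrophages were lower to a smaller extent. Of 42 measured, 17 were at least 1.5-fold lower on Mel18_KO and 0 higher, against 2.35% and 1.19% of all genes. Their median was -0.44, and Mel18_KO was the lowest of the 4 arrays for 35, against 18.8% of all genes. Ms4a6d, a membrane-spanning protein of macrophages, had 8.41 on WT, 6.42 on Mel18_KO, 8.34 on Bmi1_KO and 10.87 on DKO, 3.96-fold lower on Mel18_KO than on WT. Fcer1g, the signalling chain shared by Fc receptors, had 9.58, 8.18, 10.29 and 11.61. Tyrobp, the adaptor of many myeloid receptors, had 8.67, 7.59, 9.74 and 10.81, and Spi1, which encodes PU.1 itself, had 7.67, 6.63, 8.41 and 9.86. Markers that define macrophages differed less than these shared myeloid genes. Csf1r differed by -0.26, Cd68 by -0.42 and Adgre1 by -0.40, the last with both arrays under the floor, while C1qa differed by 0.09 and Cx3cr1 by 0.34. The pan-leukocyte gene Ptprc stood at 7.61 on WT and 7.23 on Mel18_KO. The arrays ranked in the same order for both myeloid lists by summed intensity, which included genes under the floor. The 37 neutrophil genes named on the array summed to 30074 on WT, 20078 on Mel18_KO, 44352 on Bmi1_KO and 77795 on DKO. That sum includes Ly6g, which was bright on every array and is also on the mature colonocyte list, so it is not a measure of neutrophils alone. The 49 mononuclear phagocyte genes summed to 11249, 7823, 14384 and 40780 on the arrays in the same order. The part of these cells in the other differences below was not tested.

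Inflammatory mediators formed another list, though not a separate set, since lists share members. Of its measured genes 19 were also on other lists, as were 13 of the 34 neutrophil genes. Of 49 measured genes of cytokines and NF-kB signalling, 11 were at least 1.5-fold lower on Mel18_KO and 0 higher, though the median was only -0.16. The shares over all genes were 2.35% lower and 1.19% higher. Ccl3, a chemokine for monocytes and neutrophils, had 10.81 on WT, 8.60 on Mel18_KO, 12.09 on Bmi1_KO and 12.70 on DKO, 4.65-fold lower on Mel18_KO than on WT. Ptgs2, the inducible cyclooxygenase that makes prostaglandins, had 9.73, 7.86, 10.44 and 11.61, 3.66-fold lower. Il1b and Il1a, the 2 agonists of the interleukin-1 receptor, differed by -1.51 and -1.69, and Cxcl2, which recruits neutrophils through Cxcr2, by -1.32. Cxcl5 and Il18, which epithelium also makes, lay on the other side, 0.22 and 0.16 above WT. Saa3, an acute-phase serum amyloid, belonged to the antimicrobial list and had 10.20, 7.50, 10.87 and 11.81, 6.47-fold lower. In that list 5 of 37 genes were lower and 1 higher, the median was 0.01, and 21 of the 37 were also on other lists. Ppbp, the platelet chemokine CXCL7, departed from the common order at 9.83, 7.38, 10.18 and 8.41, with DKO below WT.

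Among the 70 genes, 27 were on the neutrophil or the mononuclear phagocyte list and 33 on no list. The unlisted ones included Alox5ap, which presents arachidonic acid to 5-lipoxygenase, at 8.84 on WT and 7.25 on Mel18_KO, Cd53, a leukocyte tetraspanin, at 9.35 and 8.19, and Srgn, the proteoglycan of secretory granules, at 11.61 and 10.52. They were named after their values were seen. Since the 70 were chosen with Mel18_KO lowest, the order of the other arrays is read beside the 2357 genes for which Mel18_KO was lowest by any margin. DKO was the highest array for 69 of the 70 and for 70.3% of the 2357. Bmi1_KO was above WT for 67 of the 70 and for 61.5%, and the order WT, Bmi1_KO, DKO from low to high held for 66 of the 70 and for 44.6%.

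The choice of WT as the other side of the comparison brought in genes of another organ. Of the 12 measured genes of seminal vesicle secretions, 11 were at least 2-fold lower on Mel18_KO, with a list median of -5.35. Svs2, which encodes a major protein of the mouse copulatory plug, had 12.02 on WT, 4.32 on Mel18_KO, 6.82 on Bmi1_KO and 4.50 on DKO, and Svs4 had 12.17, 4.67, 5.73 and 4.16. These transcripts were high on WT and at background on Mel18_KO, and the 12th gene, the trypsin inhibitor Spink1, is expressed in the gut and differed by -0.32. The 5 other genes with WT at least 2-fold above each other array were Ceacam10, at 11.03 on WT and 8.50 on Mel18_KO, the unnamed model 9530003J23Rik, the keratin gene Krt6a, the muscle light-chain gene Myl1 and the heat shock gene Hspa1a, of which those outside the ranking were named after their values were seen. Leaving out the seminal vesicle list left 91 lower genes.

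Keratins of stratified epithelium, found at the anal margin and not in normal colon, were likewise lower on Mel18_KO. Krt5, the basal-layer keratin, had 8.76 on WT, 6.36 on Mel18_KO, 8.05 on Bmi1_KO and 5.82 on DKO, 5.30-fold lower on Mel18_KO than on WT. Krt17 had 7.89, 6.01, 7.56 and 6.21, and Krt14, the partner of Krt5, had 8.39, 7.17, 7.96 and 6.41. Here WT and Bmi1_KO were the high arrays and Mel18_KO and DKO the low ones, an order unlike that of the myeloid genes. The 18 measured genes of squamous epithelium had a median of -0.27, and 5 lay 1.5-fold lower against 1 higher, but the median was -0.01 with a floor of 8. Over all genes 2.35% were 1.5-fold lower and 1.19% higher. The summed intensity of the 33 list genes named on the array, those under the floor included, was 6516 on WT and 5850 on Mel18_KO. Trp63, the master regulator of the squamous lineage, was under the floor on both arrays at 5.81 and 5.72. Des, the intermediate filament of muscle, had its highest level on WT, at 6.83 against 5.70 on Mel18_KO, and 3 of 15 smooth muscle and pericyte genes were lower with 0 higher. The 30 measured fibroblast genes had a median of -0.04, with 3 at least 1.5-fold lower and 0 higher. Among them Vim, Inhba and Dcn differed by -1.08, -1.05 and -0.99, each with the array order of the myeloid genes, Mel18_KO lowest and DKO highest. The collagen genes Col1a1 and Col3a1 differed by 0.04 and 0.19. The part of such tissue in the comparison was not tested.

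On the higher side, 6 of 20 measured B and plasma cell genes were at least 1.5-fold higher on Mel18_KO and 0 lower. Over all genes 1.19% were higher and 2.35% lower. The list median of 0.39 depended on the dim genes: it was 0.22 without the floor and 0.15 with a floor of 8. For 4 of the 20, Mel18_KO reached the floor and WT did not, and 1 of these, Cd79a, was measured through Mel18_KO alone. Ighm, the constant region of IgM, had 6.19 on WT, 7.84 on Mel18_KO, 6.20 on Bmi1_KO and 7.35 on DKO, and Igha, that of IgA, had 6.39, 7.91, 6.59 and 7.01. Cd79a, a signalling chain of the B cell receptor, had 4.92, 6.27, 5.62 and 5.28, a level under the floor on every array but Mel18_KO, and its partner Cd79b stood at 6.85 on WT and 7.72 on Mel18_KO. Jchain, which joins IgA and IgM into polymers, was 0.84 higher on Mel18_KO than on WT but highest on DKO, at 9.15. The plasma cell gene Mzb1 differed by -0.05. Most of these levels were dim. The summed intensity of the 29 list genes named on the array, those under the floor included, was 7126 on WT and 8046 on Mel18_KO. It was 7291 on Bmi1_KO and highest on DKO, at 12662. Mel18_KO was the highest array for 4 of the 20 measured, against 26.6% of all genes. The part of B cells in other differences was not tested. Class II antigen presentation genes pointed the same way, with 2 of 10 at least 1.5-fold higher, 0 lower and a median of 0.47, and H2-Ab1, a chain of the class II molecule itself, stood at 9.95 on WT and 10.47 on Mel18_KO. Interferon-gamma targets as a list were near 0 with a median of 0.09, although Iigp1, an interferon-inducible GTPase, had 7.16 on WT, 8.28 on Mel18_KO, 8.38 on Bmi1_KO and 9.22 on DKO. T and NK cell genes had a median of 0.00, of either sign by the scaling of the arrays, and 1 of 25 was lower, beside 2.35% of all genes.

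Only 10 genes qualified for the ranking of higher genes, since 8 of the 18 were antibody segments, olfactory receptors or unnamed models. WT was the lowest of the 4 arrays for 14 of the 18 and Mel18_KO the highest for 8. Both counts follow in part from the choice of genes with Mel18_KO above WT, and Mel18_KO was highest for 26.6% of all genes. Reg3b, a bactericidal lectin of the gut epithelium, had 6.73 on WT, 8.33 on Mel18_KO, 7.77 on Bmi1_KO and 13.18 on DKO, 3.01-fold higher on Mel18_KO than on WT but far below DKO. Its relative Reg3g stood at 7.19 and 7.52 on WT and Mel18_KO, a difference of 0.32. Fabp6, the ileal bile acid binding protein, had 5.93, 7.35, 6.80 and 4.77, and Slc10a2, the ileal bile acid transporter, was 6.76 on WT and 7.69 on Mel18_KO. Alpi, the alkaline phosphatase of small bowel brush border, had 6.01, 7.20, 6.14 and 9.51, 2.29-fold higher. Over the 26 measured genes of small bowel absorption 4 were at least 1.5-fold higher, against 1.19% of all genes, 0 were lower and the median was 0.21. Guca2a, which encodes the hormone guanylin of surface colonocytes, was bright at 10.30, 11.32, 11.31 and 11.99, with WT as the one low array. Srsy, a multicopy gene, had 5.32, 7.06, 6.79 and 5.90 and headed the ranking at 3.34-fold.

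Genes with Mel18_KO above all other arrays did so by less than 2-fold. Antibody genes, olfactory receptors, small RNAs and unnamed models were left out of this ranking. Tmigd1, an adhesion protein of mature enterocytes, led it with 7.38 on WT, 8.31 on Mel18_KO, 7.26 on Bmi1_KO and 7.04 on DKO. Pla2g4f, a cytosolic phospholipase, had 7.60, 8.64, 7.80 and 7.26, and Tet3, which oxidises methylated cytosine, had 8.81, 9.44, 8.82 and 8.58. Mature colonocyte genes counted 5 higher and 1 lower of 49 at 1.5-fold, beside 1.19% and 2.35% of all genes, with a median of 0.11. Cholesterol synthesis genes had 0 past 1.5-fold in either direction of 20 measured, but a median of 0.27 and Mel18_KO as the highest array for 17. Sqle, an early oxygen-requiring enzyme of the pathway, had 10.69, 11.07, 10.61 and 9.85. Respiratory chain genes showed a smaller lean, with a median of 0.15 and Mel18_KO highest for 30 of 49. Over all genes Mel18_KO was highest for 26.6%. DKO was low in both lists, with median DKO minus Bmi1_KO of -0.72 for cholesterol synthesis and -0.66 for the respiratory chain.

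Proliferation lists had medians below 0, while their counts past 1.5-fold lower stayed near the 2.35% of all genes. Mitosis genes had a median of -0.26, with 2 of 67 at least 1.5-fold lower and 0 higher, and DNA replication genes a median of -0.18, with 1 of 49 lower. Mki67, the common marker of cycling cells, stood at 11.34 on WT, 11.06 on Mel18_KO, 10.99 on Bmi1_KO and 9.89 on DKO. Ribosome biogenesis genes and MYC targets had a median of -0.24 and 1 of 40 lower. Bmi1_KO minus WT gave medians of -0.35 for mitosis, -0.25 for DNA replication and -0.23 for ribosome biogenesis. Against WT, the lean of these lists was thus not particular to Mel18_KO. Both differences share the WT array, so they are not separate evidence. Crypt stem cell genes had a median of -0.11 and 0 of 21 past the threshold, with Lgr5, the receptor that marks these cells, at 7.78 and 7.73. Muc2, the main mucin of goblet cells, was at 12.99 and 12.84. Early response genes held 5 lower of 37: the transcription factor Egr1 differed by -1.14, the phosphatase Dusp1 by -0.97 and Myc by -0.70.

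Genes tied directly to Polycomb showed little difference. Of the 25 PRC1 subunit genes measured, 1 was lower: Pcgf1, which belongs to a non-canonical PRC1, at 7.39 on WT and 6.80 on Mel18_KO. The list median was -0.11. PRC2 subunits, Hox genes and developmental regulators, the last 2 being classic Polycomb targets, had medians of -0.03, 0.00 and -0.05, each of which turned sign under another scaling of the arrays, and 0 of 12, 0 of 20 and 0 of 32 genes passed 1.5-fold. Only 20 of 39 Hox genes and 32 of 74 developmental regulators were measured, and the rest were under the floor on all 4 arrays or not named on the array. Cell cycle inhibitors counted 0 of 13 past 1.5-fold with a median of 0.11. Cdkn2a itself was dim, at 5.78 on WT, 5.99 on Mel18_KO, 6.10 on Bmi1_KO and 6.22 on DKO.

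**Figure D4:**
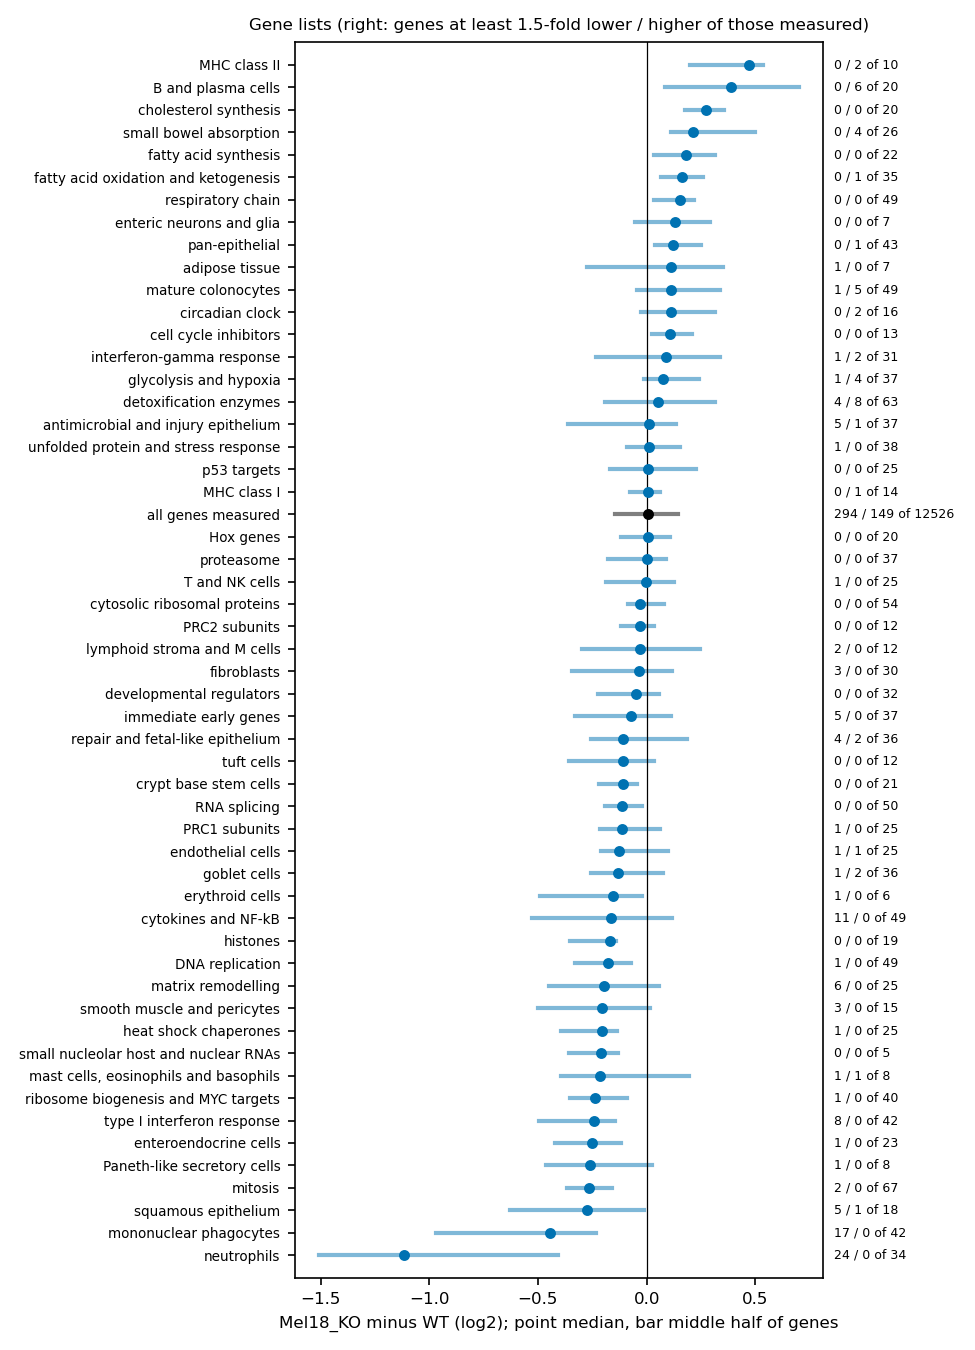
Median Mel18_KO minus WT (log2, points) and the range from the lower to the upper quartile of genes (bars) for each gene list other than seminal vesicle secretions, with all genes measured in black and the counts at least 1.5-fold lower and higher at the right. Neutrophil genes lie lowest at -1.12, and B and plasma cell genes and MHC class II genes highest at 0.39 and 0.47.

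Type I interferon targets depended on which array stood opposite. Against WT, 8 of 42 were at least 1.5-fold lower on Mel18_KO and 0 higher, beside 2.35% and 1.19% of all genes. Their median was -0.24, and Rsad2, an antiviral enzyme, stood at 9.63 on WT and 8.77 on Mel18_KO. Against Bmi1_KO the median was 0.25, with 1 lower and 5 higher. Over all genes Mel18_KO was at least 1.5-fold lower than Bmi1_KO for 408 (3.26%) and higher for 155 (1.24%), and at 2-fold lower for 192 (1.53%) and higher for 28 (0.224%). Neutrophil genes were lower against either array: against Bmi1_KO their median was -2.17, with 27 of 34 lower and 0 higher. Both comparisons share the Mel18_KO array, so they are not separate evidence.

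A second Mel18 difference, DKO minus Bmi1_KO, uses the other two arrays and so shares none with Mel18_KO minus WT. Across the 12526 genes the differences had a Pearson correlation of -0.06 and a Spearman correlation of -0.01, given as a description since genes are not replicates. Where Bmi1 was also deleted, Mel18 deletion went with 1797 genes past 1.5-fold upward (14.3%) and 2211 downward (17.7%). The myeloid lists had opposite signs in the 2 differences. Neutrophil genes had a median of -1.12 without and 0.90 with Bmi1 deletion, where 25 of 34 were higher and 1 lower, and mononuclear phagocyte genes -0.44 and 1.77, where 40 of 42 were higher. Of these genes, 3 of the 34 and 6 of the 42 were under the floor on both WT and Mel18_KO. They were measured only through Bmi1_KO or DKO, so the values of this second difference depend in part on the floor. Of the 102 genes lower on Mel18_KO, 55 were at least 2-fold higher on DKO than on Bmi1_KO, 7 lower and 40 within 2-fold. Over all 12526 genes the same 2-fold counts were 834 higher and 759 lower. Whether the 2 differences differ beyond the spread between mice was not tested, with 1 array on each side.

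**Figure D5:**
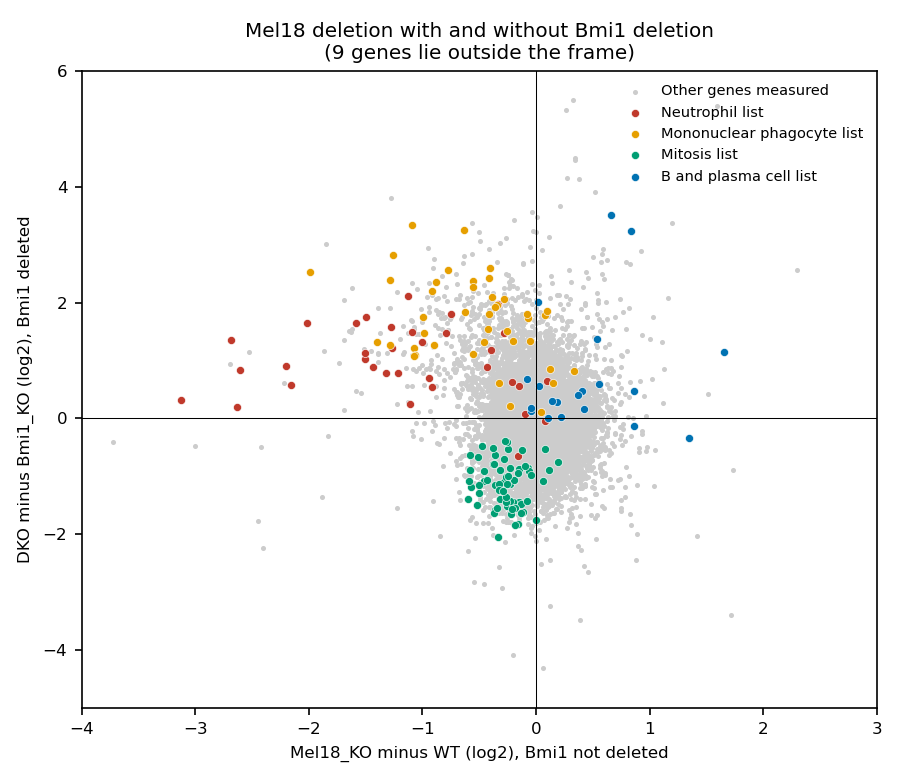
Mel18_KO minus WT (horizontal axis, log2) against DKO minus Bmi1_KO (vertical axis, log2), 1 point per gene, with colours for 4 lists; 9 genes far to the left are outside the frame. Neutrophil and mononuclear phagocyte genes lie mostly upper left, with medians of -1.12 and -0.44 across and 0.90 and 1.77 up.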

How the data were processed

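RNA from 4 colon epithelial preparations, 1 per genotype, was labelled from 200 ng and hybridised to Affymetrix Mouse Gene 1.0 ST arrays, per the labels. The authors deposited linear intensity values for 35556 probe sets, which per the submitters' processing notes came from Expression Console of Affymetrix by the RMA method; the sources used here do not give versions. RMA fits the arrays to a common distribution, which removes differences shared by most genes. Intensities ran from 4.70 to 13738, and their median per array from 67.0 to 73.0.

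Values were converted to log2. GEO's platform annotation gave 1 symbol for 21789 probe sets, several for 1621 and none for 12146; for the 999 genes with several probe sets the brightest was used. Genes needed a log2 intensity of 6 on the brightest of the 4 arrays, and counts used 2-fold or, for lists, 1.5-fold. The 54 gene lists held 2009 entries, of which 1760 matched by symbol, 40 by RefSeq synonym and 209 not at all. Members and lists were chosen with earlier results of these data known.

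Genes were named by rule: Pcgf2, Bmi1, the 15 highest and 15 lowest differences past 2-fold (antigen receptor segments, olfactory receptors, small RNAs and unnamed models left out, seminal vesicle genes described as a group), the 10 furthest above and below the other arrays, up to 4 members per list, and 6 genes of general interest (Muc2, Mki67, Lgr5, Cdkn2a, Reg3g and Reg3b). Marker genes and further list members are given beside the group they belong to. No test or p-value was computed, since each genotype has 1 array, so the few arrays limit the precision. The scaled median absolute deviation of the differences over genes, 0.22, served as their error scale. It is a spread over genes for 1 pair of arrays and does not measure the spread between mice. The counting was tested on simulated data. Alternatives were another floor, scaling, threshold, added constant and comparison array. Python 3.11.15, pandas 2.3.3, numpy 2.4.6 and, for cyclic loess, R 4.3.3 with limma 3.58.1 were used.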

Additional observations from a re-analysis of the deposited data

Results flagged for a closer look

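The neutrophil list stood out because its median difference had opposite signs in the 2 Mel18 differences, -1.12 for Mel18_KO minus WT and 0.90 for DKO minus Bmi1_KO. The difference between them was not tested.

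Probe sets that list several genes were outside the gene counts, and 2 groups of them were high against WT. All 28 probe sets of the Ssty family, multicopy genes of the Y chromosome, were at least 2-fold higher on Mel18_KO than on WT, with a median difference of 1.77 and a range from 1.15 to 2.14. Their median log2 intensity was 4.97 on WT, 6.65 on Mel18_KO, 6.58 on Bmi1_KO and 5.64 on DKO, so WT was the low array. Single-copy Y genes did not share this: Kdm5d stood at 7.96 on WT and 8.11 on Mel18_KO. The 4 probe sets of several immunoglobulin heavy chain genes had a median difference of 1.88, with 3 at least 2-fold higher and median levels of 5.44 on WT, 7.32 on Mel18_KO, 5.82 on Bmi1_KO and 7.08 on DKO. These differences were not tested.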

How the results depend on the processing

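No paired analysis was possible because each genotype has 1 array and the labels give no replicate numbers. The 18 higher genes became 8 with a floor of 8, 8 with 32 added to the intensity, 149 at 1.5-fold, 5 at 3-fold and 31 over all probe sets. The 102 lower genes became 62 with 32 added, 294 at 1.5-fold and 37 at 3-fold. With Bmi1_KO in place of WT, a choice made after seeing the data, the counts were 28 higher and 192 lower. The 0 genes above each other array became 1 under median centring, 4 without DKO and 5 without WT, the last 2 also chosen after seeing the data. The 70 genes below each other array became 40 with 32 added and 178 without WT. Of the 2-fold genes 15% were higher, 8.16% with the floor of 8. Of 378 list medians under alternatives 364 stayed less than the error scale of 0.22 away from the main value. So did 1452 of 1489 values of named genes, and no difference past 2-fold reversed. The medians of 16 lists changed sign under at least 1 alternative, all of them 0.22 or less in size; that of mast cells, eosinophils and basophils went from -0.22 to 0.49 with the floor of 8. Adding 32 shrinks differences of dim genes: Ngp became -2.0 and Chil3 -1.44. Levels near the floor limit what dim genes show.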
